A study of Mus musculus with 12 samples.

Results

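The comparison described here sets mouse primary hepatocytes (HPC) after 4 h of TGF-β1 against the same kind of cells after 20 min of TGF-β1, so both groups had received the cytokine. It uses 6 of the 12 arrays of the series, the 3 labelled 4 hours and the 3 labelled 20 min, paired by the replicate number in their titles. The methods text of the study does not list 20 min among the times for mouse HPC, so the time of the reference group rests on the labels and on the overview of samples in the supplement. The cells came from male C57BL/6 mice, were released with collagenase, plated on collagen-coated dishes in serum-free HepatoZYME-SFM medium and given 1 ng/ml recombinant human TGF-β1. The other groups are untreated cells at 0 min and cells after 2 h of TGF-β1, with 3 arrays each, and no array of untreated cells at 4 h is analysed here. Longer TGF-β1 treatment and longer time in the changed medium therefore cannot be told apart at 4 h. A change that was complete by 20 min drops out when 20 min is the reference. The question asked was which of the changes against untreated cells remained when 20 min was the reference.

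TGF-β1 binds a pair of serine/threonine kinase receptors, TGFBR2 and TGFBR1, which phosphorylate SMAD2 and SMAD3. These join SMAD4 and act on target genes in the nucleus, and among the targets are inhibitors of the pathway itself, such as the inhibitory SMADs, SKI and SKIL, and PMEPA1. In liver the cytokine is known for stopping hepatocyte growth, for inducing matrix genes and for its part in fibrosis. Receptor phosphorylation is fast, whereas messenger RNA needs time to accumulate, and short-lived transcripts of immediate-early genes can move within minutes.

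Values are log2 signals after robust multi-array averaging (RMA), on which a step of 1 is a 2-fold change, and each difference is the limma estimate within replicates with its standard error (SE). The array medians lay between 6.82 and 6.93. Markers of hepatocytes stood at or above the 91.1 percentile of signal, and 0 of 15 differed between 4 h and 20 min at an adjusted p under 0.05 in limma, with 4 at an unadjusted p under 0.05. Over all 19938 genes tested, 1978 had an unadjusted p under 0.05 in the same limma comparison. Replicate 1 stood apart at every time point: within a time point, replicates 2 and 3 differed by 0.11 to 0.187 (root mean square over all genes, log2), and pairs with replicate 1 by 0.361 to 0.463. Arrays of 20 min and 4 h with the same replicate number differed by only 0.154 to 0.202. The study describes biological replicates, and the sources used here do not say whether each came from a separate animal. With replicate as a factor, the p-values measure the spread of these samples that remains after time and replicate differences are removed.

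Of the 20 genes that passed the threshold at 4 h against 0 min (limma, adjusted p under 0.01 and at least 2-fold), 7 also passed it against 20 min. They were the SMAD-binding inhibitor Pmepa1, the matrix genes Thbs1 and Lox, the ubiquitin ligase Lnx2, the interleukin-22 receptor subunit Il22ra1, the long noncoding RNA 4833422C13Rik and, as the only one that fell, Depp1. These 7 were also all the genes past the threshold at 4 h against 20 min, where 0.0301% of the 19938 genes tested were higher and 0.00502% lower. Against 0 min the percentages were 0.0652% higher and 0.0351% lower. At 20 min against 0 min limma called 0.0% of genes at an adjusted p under 0.05, with 1708 at an unadjusted p under 0.05. The 2 comparisons at 4 h share the 4 h arrays, so a gene high on those arrays is high in both.

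The called changes are array signals of transcripts, not measurements at gene starts. The start regions of 4 of these 7 genes are shown as reference sequence. They are RefSeq windows on GRCm38.p6 from 250 bases before to 50 bases after the annotated start, for Il22ra1 at chr4:135727909-135728208 (+ strand), Lnx2 at chr5:147076523-147076822 (- strand), 4833422C13Rik at chr13:91741823-91742122 (- strand) and Depp1 at chr6:116650434-116650733 (+ strand), each written 5′ to 3′ on the strand of the gene. Capitals mark matches on either strand to CAGAC, a short element bound by SMAD3 and SMAD4, TGANTCA, bound by AP-1, GGAATG, bound by TEAD factors, and GTAAACA, bound by FoxO factors.
Il22ra1: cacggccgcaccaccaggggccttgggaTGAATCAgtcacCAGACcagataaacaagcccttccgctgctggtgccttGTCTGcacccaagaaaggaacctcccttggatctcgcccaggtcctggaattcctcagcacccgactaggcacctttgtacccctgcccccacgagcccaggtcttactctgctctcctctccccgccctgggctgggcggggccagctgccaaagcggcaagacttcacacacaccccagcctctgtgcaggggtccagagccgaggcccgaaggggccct
Lnx2: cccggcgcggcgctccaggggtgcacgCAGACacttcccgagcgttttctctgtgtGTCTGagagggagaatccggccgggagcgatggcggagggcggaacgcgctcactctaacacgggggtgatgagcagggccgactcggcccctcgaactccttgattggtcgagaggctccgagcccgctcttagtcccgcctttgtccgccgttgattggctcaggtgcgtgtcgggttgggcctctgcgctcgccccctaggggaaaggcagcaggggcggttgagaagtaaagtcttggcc
4833422C13Rik: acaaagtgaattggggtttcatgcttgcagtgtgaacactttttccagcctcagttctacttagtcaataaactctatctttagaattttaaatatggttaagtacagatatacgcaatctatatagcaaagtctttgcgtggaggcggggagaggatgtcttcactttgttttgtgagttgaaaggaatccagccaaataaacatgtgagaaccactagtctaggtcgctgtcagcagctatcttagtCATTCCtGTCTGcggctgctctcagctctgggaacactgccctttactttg
Depp1: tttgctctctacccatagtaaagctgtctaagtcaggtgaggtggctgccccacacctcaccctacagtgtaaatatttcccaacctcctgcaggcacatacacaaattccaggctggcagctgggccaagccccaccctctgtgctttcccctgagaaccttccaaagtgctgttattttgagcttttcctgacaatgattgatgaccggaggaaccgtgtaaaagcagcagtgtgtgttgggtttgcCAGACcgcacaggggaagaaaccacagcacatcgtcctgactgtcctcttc
The Il22ra1 window held 2 matches to CAGAC and 1 to TGANTCA, the Lnx2 window 2 to CAGAC, the 4833422C13Rik window 1 to CAGAC and 1 to GGAATG, and the Depp1 window 1 to CAGAC. Of 32851 windows of this length, 49.6% held CAGAC, 7.81% TGANTCA, 14.7% GGAATG and 3.65% GTAAACA. No match to GTAAACA was found in the Depp1 window. The GC-rich SMAD element GGCGC, left in lower case, matched 2 times in the Lnx2 window, 0 times in the other windows and in 36.9% of all windows. No match overlapped another. Pmepa1, Thbs1 and Lox are named only.

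Pmepa1, whose membrane protein binds SMADs and dampens the pathway, had the largest difference of the 7. Its log2 signal was 8.01, 7.97 and 8.0 at 20 min in replicates 1 to 3 and 10.30, 10.76 and 10.48 at 4 h. The groups lay far apart, and the 20 min arrays were closer to the untreated arrays (7.62, 7.81 and 7.79) than to any 4 h array. The difference was 2.53 (SE 0.23) or 5.76-fold, with an adjusted p of 0.0028 in limma, beside 2.78 (SE 0.23) against 0 min and 0.25 (SE 0.23) from 0 min to 20 min.

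Thbs1 encodes thrombospondin 1, a matrix protein that can activate latent TGF-β. It read 8.12, 7.33 and 7.26 at 20 min and 10.26, 8.93 and 8.60 at 4 h. Replicate 1 was the highest in both groups, every 4 h array lay above every 20 min array, and the difference was 1.70 (SE 0.19; limma, adjusted p = 0.0041). Lox, whose enzyme cross-links collagen fibres, read 10.03, 9.10 and 9.02 at 20 min and 11.24, 10.61 and 10.56 at 4 h, again with replicate 1 highest. Its difference was 1.42 (SE 0.16) with 20 min as the reference and 1.38 (SE 0.16) with 0 min. Neither matrix gene stood higher at 20 min than at 0 min, with estimates of -0.21 (SE 0.19) for Thbs1 and -0.04 (SE 0.16) for Lox.

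Il22ra1, which pairs with the IL-10 receptor β chain to bind IL-22, read 7.95, 8.01 and 8.04 at 20 min and 9.20, 9.92 and 9.54 at 4 h. The difference was 1.55 (SE 0.16), and a second probe set of the gene gave 1.13 (SE 0.11; limma, adjusted p = 0.0034). Lnx2, a RING-type ubiquitin ligase known for binding the Notch inhibitor Numb, read 8.85, 9.37 and 9.45 at 20 min and 10.39, 11.07 and 10.92 at 4 h, a difference of 1.57 (SE 0.17). In both genes every 4 h array lay above every 20 min array. 4833422C13Rik read 9.40, 10.04 and 10.12 at 20 min and 10.94, 11.40 and 11.26 at 4 h, a difference of 1.34 (SE 0.16).

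Depp1, a FoxO target that acts at peroxisomes, went the other way. It read 10.10, 9.98 and 10.23 at 20 min and 9.07, 8.96 and 9.13 at 4 h, so that no 4 h array reached any 20 min array. The fall was -1.05 (SE 0.13; limma, adjusted p = 0.0049), beside -1.36 (SE 0.13) against 0 min. Of that larger fall 22.9% lay between 0 min and 20 min.

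**Figure D1:**
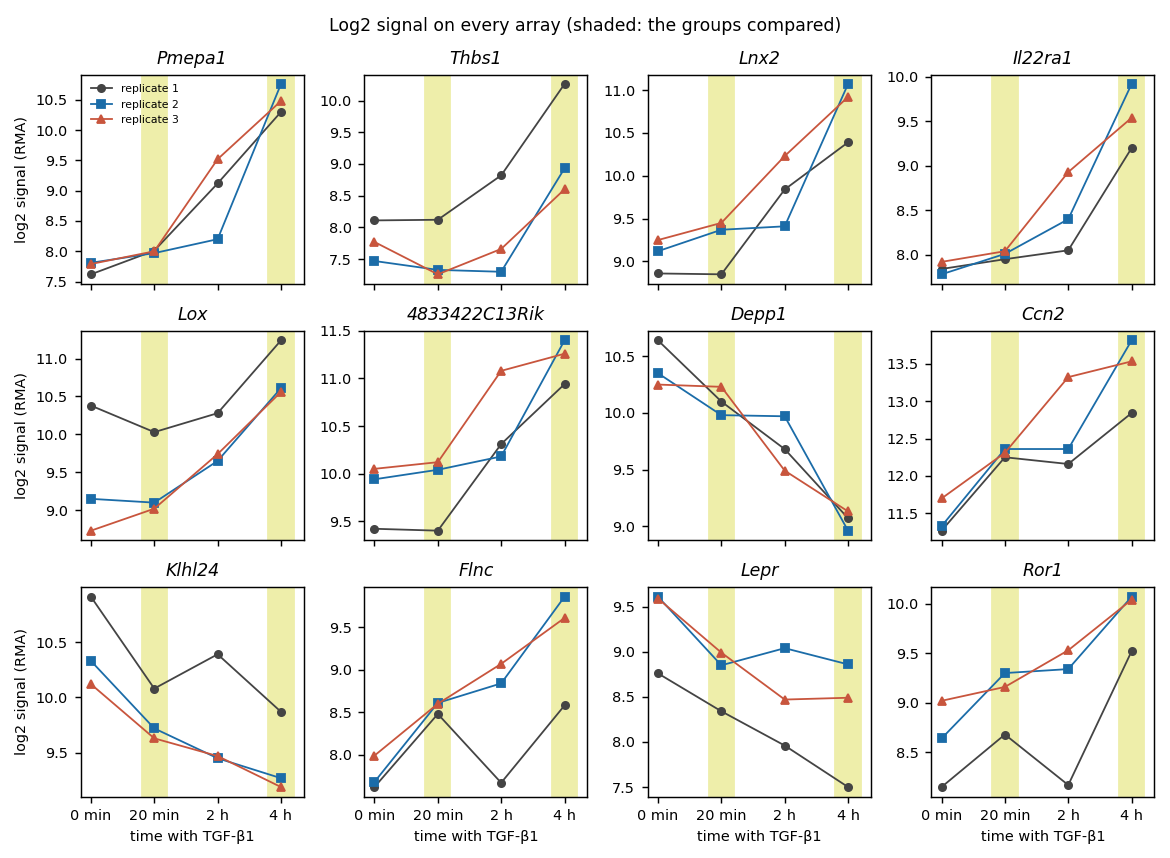
Log2 RMA signal (vertical axis) on every array by time with TGF-β1 (horizontal axis, not to scale) for the 7 genes past the threshold and 5 further genes, with 1 line and symbol per replicate and the 20 min and 4 h groups shaded. Pmepa1 reads 7.62 to 7.81 at 0 min, 7.97 to 8.01 at 20 min and 10.30 to 10.76 at 4 h. From 0 min to 20 min Pmepa1, Il22ra1, Ccn2, Flnc and Ror1 read higher in every replicate, and Klhl24, Lepr and Depp1 lower. The limma estimates of that step are, in this order, 0.25, 0.15, 0.87, 0.80, 0.45, -0.64, -0.59 and -0.31, and limma called none of them.

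The number of genes past the threshold depended on single arrays and on the model. It was 0 without replicate 3 at all time points, without the 20 min array of replicate 2 or of replicate 3, without the replicate factor and when the unnamed probe sets were tested too, 1 without the 4 h array of replicate 2, 3 without replicate 2 and 12 without replicate 1. The 7 genes all kept an adjusted p under 0.05 in each of the 12 fits that left out 1 array, and their differences kept their sign in every fit run. Without replicate 3 at all time points, however, 0 of the 7 had an adjusted p under 0.05 in limma. Without replicate 2 it was 4, without the replicate factor 1, and with the unnamed probe sets tested too 3. Of the 7, 5 were among the 12 genes past the threshold without replicate 1, and 0 still passed it without the 4 h array of replicate 2. Without the 20 min array of replicate 1, 2 of the 7 still passed it.

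For the 13 other genes that had passed against 0 min, the difference against 20 min met only a part of the threshold or none of it. Mical2, an enzyme that oxidizes actin, passed the p-value but not the fold: it read 9.33, 9.26 and 9.28 at 20 min and 10.11, 10.34 and 10.13 at 4 h, a difference of 0.90 (SE 0.10; limma, adjusted p = 0.0041). Then 5 genes were at least 2-fold apart with an adjusted p between 0.01 and 0.05, namely Mab21l4 at 1.41 (SE 0.21), the cytokine signalling inhibitor Socs2 at 1.33 (SE 0.22), the matricellular gene Ccn2 at 1.09 (SE 0.21), Wfdc17 at -1.004 (SE 0.17) and Rgs2 at -1.46 (SE 0.21). The second probe set of Socs2 gave 0.46 (SE 0.09; limma, adjusted p = 0.0504). Another 3 were in that p range under 2-fold, the receptor Ror1 at 0.83 (SE 0.15), Igsf6 at -0.83 (SE 0.13) and Ms4a6c at -0.88 (SE 0.13).

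The last 4 had an adjusted p of 0.05 or more against 20 min. They were Klhl24, an adaptor of a ubiquitin ligase, at -0.37 (SE 0.09; limma, adjusted p = 0.132), the leptin receptor gene Lepr at -0.44 (SE 0.14; adjusted p = 0.237), the filamin gene Flnc at 0.79 (SE 0.23; adjusted p = 0.199) and Zcchc10 at 0.88 (SE 0.17; adjusted p = 0.0523). Klhl24 read 10.91, 10.33 and 10.12 at 0 min, 10.08, 9.72 and 9.63 at 20 min and 9.87, 9.27 and 9.19 at 4 h. In each replicate the larger step was the first, and of the estimated 4 h change 63.4% lay between 0 min and 20 min. The step from 0 min to 20 min was -0.64 (SE 0.09) and was not called over all genes (limma, adjusted p = 0.195).

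Flnc, which cross-links actin, divided nearly evenly between the intervals. It read 7.62, 7.68 and 7.99 at 0 min, 8.48, 8.61 and 8.60 at 20 min and 8.58, 9.86 and 9.61 at 4 h. Replicate 1 at 4 h was level with the 20 min arrays, and the groups overlapped. Lepr read 8.34, 8.85 and 8.99 at 20 min and 7.50, 8.86 and 8.49 at 4 h, with overlapping groups, and 57.4% of its 4 h change fell before 20 min.

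Ccn2, a SMAD and YAP target also known as connective tissue growth factor, had the widest gap between the references of the 20 genes. It read 11.27, 11.33 and 11.70 at 0 min, 12.25, 12.36 and 12.31 at 20 min and 12.84, 13.81 and 13.53 at 4 h. All 3 arrays at 20 min were above all at 0 min, by 0.87 on average (SE 0.21), which limma did not call (adjusted p = 0.286). Against 0 min the 4 h difference was 1.96 (SE 0.21) and against 20 min 1.09 (limma, adjusted p = 0.0461), and this call was lost in 15 of 25 alternative fits. Its relative Ccn1 read 12.22, 11.62 and 11.57 at 20 min and 11.77, 12.17 and 11.98 at 4 h, a difference of 0.17 (SE 0.24) that limma did not call.

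**Figure D2:**
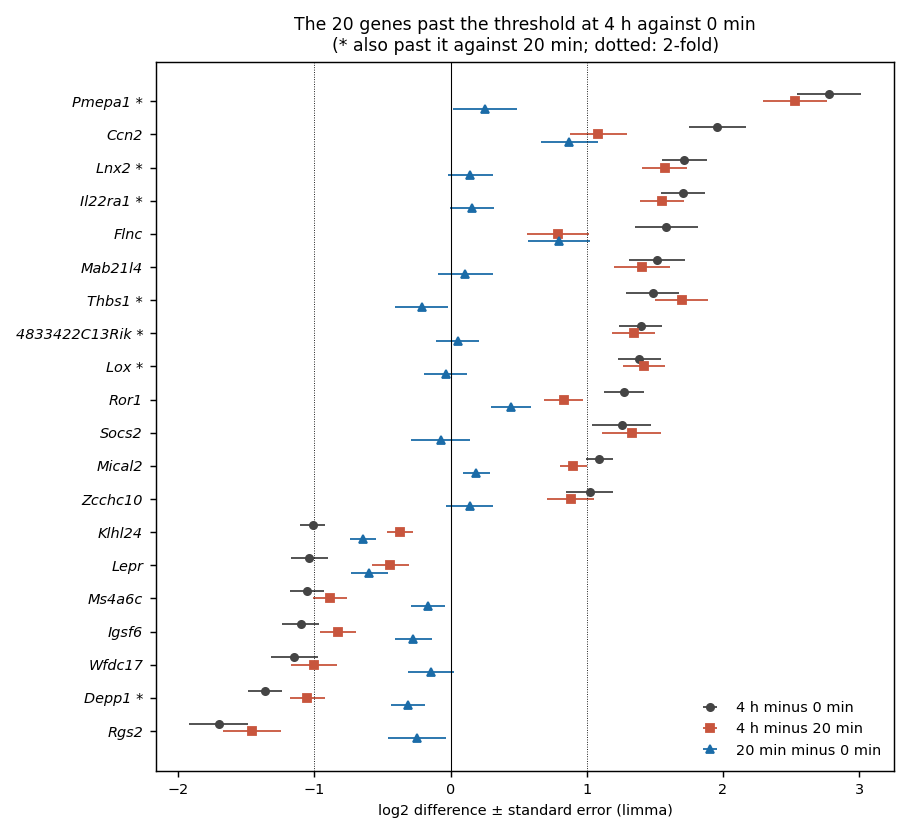
Limma log2 differences with SE bars (horizontal axis) for the 20 genes past the threshold at 4 h against 0 min (vertical axis), with circles for 4 h minus 0 min, squares for 4 h minus 20 min and triangles for 20 min minus 0 min. For the 7 genes with an asterisk the triangle carries -14.3% (Thbs1) to 22.9% (Depp1) of the circle. Genes without an asterisk also lie in that range, such as Socs2 (-5.8%), Mab21l4 (7.2%) and Rgs2 (14.5%). For Klhl24, Lepr, Flnc and Ccn2 the triangle carries 44.6% to 63.4% of the circle.

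Without a minimum fold, limma called 91 genes higher (0.456% of those tested) and 38 lower (0.191%) at 4 h than at 20 min at an adjusted p under 0.05. Against 0 min it called 330 higher (1.66%) and 636 lower (3.19%). Of the 330, 79 or 23.9% remained called higher against 20 min, and of the 636, 35 or 5.5% remained called lower. Those 79 were 86.8% of all genes called higher against 20 min, and the 35 were 92.1% of all called lower. For the 330 the median difference was 0.43 against 0 min, 0.33 against 20 min and 0.10 between 0 min and 20 min. For the 636 the medians were -0.41, -0.21 and -0.20, so the median decrease was of like size in each interval. The 20 min arrays enter the last 2 comparisons with opposite sign. The median over all genes was 0.0068 at 4 h against 20 min and 0.0172 against 0 min. All 129 genes called against 20 min moved the same way in all 3 replicates, and the groups did not overlap in 109 of them, compared with 7.13% of all genes tested. The 129 were selected by limma on the same arrays, so neither count is separate support for the calls.

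**Figure D3:**
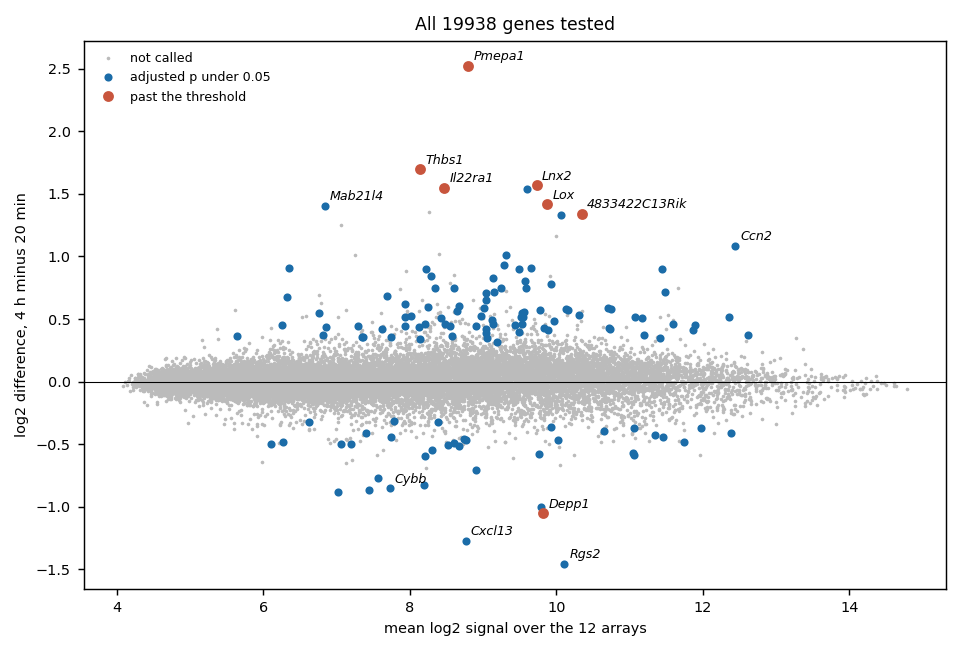
Log2 difference between 4 h and 20 min (vertical axis) against mean log2 signal over the 12 arrays (horizontal axis) for all 19938 genes, with calls at an adjusted p under 0.05 and genes past the threshold coloured. Pmepa1 at 2.53 stands above all other genes, and most of the 129 calls are under 2-fold in size.

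Among the feedback inhibitors and direct SMAD targets, 5 of 30 rose and 1 fell after 20 min, with a list median of 0.16 beside 0.0068 for all genes. For this list and those below, the shares called over all genes were 0.456% higher and 0.191% lower against 20 min. Against 0 min they were 1.66% higher and 3.19% lower. Skil, which represses SMAD complexes, read 8.92, 8.88 and 9.0 at 20 min and 9.95, 10.78 and 10.69 at 4 h, a difference of 1.54 (SE 0.28; limma, adjusted p = 0.0372). Against 0 min it had been smaller, 1.31 (SE 0.28), with Skil of replicate 1 at 9.46 without treatment. Ski rose by 0.41 (SE 0.07) and the inhibitory Smad6 by 0.44 (SE 0.08). Smad7, the other inhibitory SMAD, read 7.80, 8.0 and 7.97 at 20 min and 8.52, 9.28 and 9.02 at 4 h, without overlap, yet its difference of 1.02 (SE 0.34) was not called (limma, adjusted p = 0.287). Its 2 h group was wide, at 8.69, 7.94 and 9.99. Of 25 alternative fits limma called the difference in 1, the fit of the 6 arrays of 20 min and 4 h alone (SE 0.10, adjusted p = 0.0186). That fit leaves out the 0 min group as well as the 2 h group. The part of the 2 h spread in the missing call was not tested. The list count was 4 without replicate 1, 1 without replicate 2 and 0 without replicate 3.

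Of 17 receptors and co-receptors of the family, 3 rose and 0 fell. Tgfbr1, the type I TGF-β receptor, read 8.86, 9.55 and 9.56 at 20 min and 10.14, 10.36 and 10.19 at 4 h, a difference of 0.91 (SE 0.10; limma, adjusted p = 0.0041). Acvr1, a type I receptor for BMPs and activins, was higher by 0.71 (SE 0.10), and the type II BMP receptor gene Bmpr2 by 0.51 (SE 0.08). Tgfbr2, the receptor that binds the ligand first, read 10.24, 10.30 and 10.20 at 20 min and 10.26, 10.18 and 10.05 at 4 h, a difference of -0.08 (SE 0.07) that was not called. The list median was 0.01. Without replicate 2 or without replicate 3 limma called 0 of the 17.

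Limma called 0 of 16 signal-transducing SMADs and partners, where 6 had an unadjusted p under 0.05. Smad2 differed by 0.34 (SE 0.08; limma, adjusted p = 0.105), while Smad3 at 0.02 (SE 0.08) and Smad4 at 0.01 (SE 0.06) had estimates smaller than their SE. It also called 0 of 30 ligands and extracellular inhibitors, with 5 at an unadjusted p under 0.05. Id1, a BMP target, read 8.31, 7.92 and 7.75 at 20 min and 8.49, 8.68 and 8.44 at 4 h, a difference of 0.55 (SE 0.24; limma, adjusted p = 0.474).

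Of 46 matrix genes, 3 rose, namely Thbs1, Lox and Ccn2, and the list median was 0.00. Of 51 genes of actin, integrins and focal adhesions, 3 rose after 20 min, compared with 10 higher and 1 lower against 0 min. Besides Mical2 these were the adhesion scaffold Bcar3 at 0.75 (SE 0.09) and the PDZ-LIM protein gene Pdlim7 at 0.71 (SE 0.09). The integrin chain Itga3 was among those called against 0 min only: its difference was 0.69 (SE 0.13) against 0 min and 0.28 (SE 0.13) against 20 min. Actn1, which bundles actin, gave 0.58 (SE 0.09) and 0.43 (SE 0.09; limma, adjusted p = 0.0687 against 20 min). Of 41 genes of junctions, keratins and epithelial-mesenchymal transition, the plaque protein gene Jup at 0.75 (SE 0.11), the transcription factor gene Ets1 at 0.56 (SE 0.10) and the desmosomal cadherin gene Dsc2 at 0.48 (SE 0.07) rose. Without replicate 1 the actin list had 7 members higher, and without replicate 2 or without replicate 3 limma called 0 higher in each of these 3 lists.

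Of 46 genes of the Notch, Wnt and Hippo pathways, 4 rose. Besides Lnx2 and Ror1 they were Tbl1xr1, a subunit of the NCoR corepressor complex, at 0.78 (SE 0.10), and the Wnt receptor gene Fzd4 at 0.68 (SE 0.13). Ror1 read 8.68, 9.30 and 9.16 at 20 min and 9.52, 10.07 and 10.04 at 4 h, and 34.9% of its change against 0 min lay before 20 min. Of 45 cytokine receptor, JAK-STAT and SOCS genes, Il22ra1, Socs2 and the shared IL-6 receptor subunit gene Il6st at 0.35 (SE 0.06) rose. Without replicate 2 limma called 1 gene of the Notch, Wnt and Hippo list and 0 of the cytokine list higher, and without replicate 3 it called 0 in both. The sphingosine kinase gene Sphk1 at 0.93 (SE 0.14), the adenylyl cyclase gene Adcy9 at 0.75 (SE 0.08), the lipid transporter gene Mfsd2a at 0.90 (SE 0.11) and the chloride channel family gene Clic4 at 0.72 (SE 0.09) also rose and were chosen after their values were seen. None of the lists holds them.

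Of 59 immediate-early and growth factor response genes, 6 fell and 2 rose after 20 min, with a median of -0.07. Rgs2, which limits signalling through G proteins, read 11.26, 10.17 and 10.25 at 20 min and 10.44, 8.42 and 8.45 at 4 h. It fell in each replicate, but replicate 1 at 4 h was still above replicates 2 and 3 at 20 min. The kinase gene Plk3 fell by 0.59 (SE 0.08), the mRNA-destabilizing Zfp36 by 0.57 (SE 0.11) and its relative Zfp36l1 by 0.37 (SE 0.06).

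Jun, the AP-1 subunit, read 11.73, 11.38 and 11.34 at 20 min and 11.24, 10.92 and 11.01 at 4 h, a fall of -0.43 (SE 0.07; limma, adjusted p = 0.0178). Myc fell by 0.41 (SE 0.07). At 20 min against 0 min limma called 0.0% of all genes and so none of the 6 that fell. Jun gave -0.03 (SE 0.07) and Myc 0.12 (SE 0.07) there. Other members were not called against 20 min: Fos differed by -0.31 (SE 0.10), Egr1 by -0.35 (SE 0.08; limma, adjusted p = 0.093), and Junb by 0.14 (SE 0.12). The kinase gene Sgk1 at 0.56 (SE 0.08) and the clock gene Per2 at 0.51 (SE 0.07) rose. Without replicate 1 the count of members that fell was 4, and it was 0 without replicate 2 or replicate 3.

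The list with the most members called was that of Kupffer cells and other macrophages, the resident phagocytes of the liver. Of 27 markers 10 fell and 0 rose after 20 min, with a median of -0.31, and 14 fell against 0 min, with a median of -0.35. Over all genes 0.191% were called lower against 20 min and 3.19% against 0 min. Between 0 min and 20 min the median was -0.06. In bulk RNA, fewer cells of a type and less RNA per cell cannot be told apart. The mean log2 signal over the 27 markers was 7.63, 7.47 and 7.46 at 20 min and 7.11, 7.18 and 7.20 at 4 h, so the groups did not overlap.

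Cybb, the catalytic subunit of the phagocyte NADPH oxidase, read 7.79, 8.13 and 8.04 at 20 min and 6.92, 7.32 and 7.18 at 4 h. Its fall of -0.85 (SE 0.07; limma, adjusted p = 7.65e-04) had the smallest p-value of the markers. Wfdc17 read 10.12, 10.11 and 10.09 at 20 min and 8.42, 9.44 and 9.45 at 4 h, with the lowest value in replicate 1. In 9 of the 10 called markers the decrease was largest in replicate 1. The complement gene C1qb fell by 0.71 (SE 0.13), the Fc receptor chain gene Fcer1g by 0.59 (SE 0.11) and Csf1r, the receptor that macrophages need for survival, by 0.41 (SE 0.07). Cd74, the invariant chain of antigen presentation, is no member of the list and read 7.99, 7.48 and 7.71 at 20 min and 6.95, 6.99 and 6.63 at 4 h.

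Several defining Kupffer cell markers were low and not called: Clec4f, Cd5l, Timd4 and Marco stood between the 26.2 and 43.8 percentile of signal. The most abundant markers, Cd14 and Cd68, at the 98.6 and 97.1 percentile, differed by -0.10 (SE 0.06) and -0.05 (SE 0.11), and neither was called. The chemokine gene Cxcl13 also read lower, from 8.80, 9.56 and 9.62 at 20 min to 7.62, 8.47 and 8.07 at 4 h, with the largest decrease in replicate 3. It was the 1 gene of 52 in the NF-kB, chemokine and interferon list that fell. The part of the macrophage markers in the changes of Cxcl13, Cd74 and the immediate-early genes was not tested. The count of 10 markers was 5 without replicate 1, 1 without replicate 2 and 0 without replicate 3. Of 16 endothelial markers Lyve1 fell by 0.52 (SE 0.08), and limma called 0 markers of stellate cells, cholangiocytes, neutrophils and lymphocytes, with 0, 2, 2 and 1 at an unadjusted p under 0.05.

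**Figure D4:**
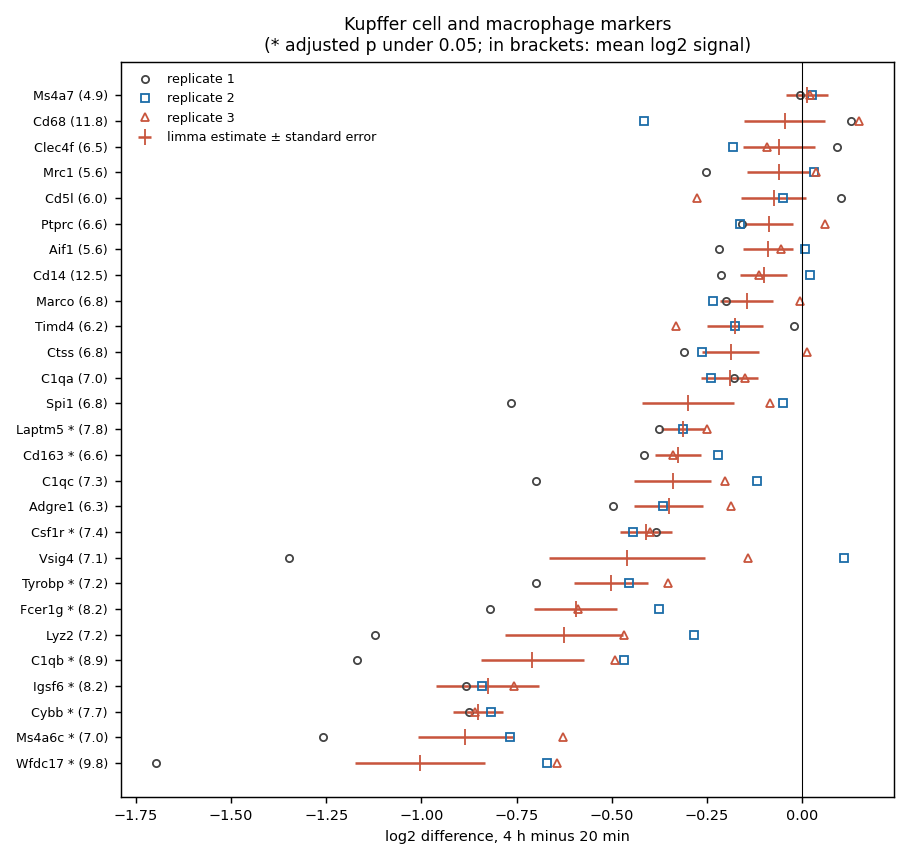
Log2 difference between 4 h and 20 min (horizontal axis) for the 27 Kupffer cell and macrophage markers (vertical axis), with open symbols for the 3 replicates and red ticks with bars for the limma estimate and its SE. The 10 called markers lie below 0 in all replicates, and replicate 1 has the lowest value for 9 of them, all but Csf1r.

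Other decreases against untreated cells were not called with 20 min as the reference. Limma also called fewer decreases over all genes there, 0.191% against 20 min and 3.19% against 0 min. The counts in these and the liver metabolic lists are to be read beside those shares. Of 41 ER chaperone and integrated stress response genes, 16 fell against 0 min and 0 against 20 min, where 7 had an unadjusted p under 0.05. The list medians were -0.22 against 0 min, -0.05 against 20 min and -0.17 from 0 min to 20 min. Sdf2l1, an ER chaperone cofactor, read 9.48, 10.40 and 10.44 at 0 min, 9.40, 9.17 and 8.95 at 20 min and 8.95, 8.78 and 8.94 at 4 h. Replicates 2 and 3 read lower at 20 min than at 0 min, replicate 1 was low at both, and limma did not call that step. The protein disulfide isomerase gene Pdia4 differed by -0.67 (SE 0.09) against 0 min and -0.21 (SE 0.09) against 20 min, and Ddit3, the CHOP transcription factor of the stress response, by -0.94 (SE 0.14) and -0.35 (SE 0.14). Of 40 lysosome and V-ATPase genes, 5 fell against 0 min and 0 against 20 min (4 at an unadjusted p under 0.05), with medians of -0.14 and -0.01.

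Liver metabolic lists lay between these patterns. Of 58 urea cycle or amino acid breakdown genes, 27 fell against 0 min and 0 against 20 min, although 29 had a lower value at an unadjusted p under 0.05, and the medians were -0.31, -0.18 and, from 0 min to 20 min, -0.14. Of 54 cytochrome P450 and phase II genes, 19 fell against 0 min, and against 20 min only the sulfotransferase gene Sult1a1 did, by 0.39 (SE 0.07), with medians of -0.30 and -0.18. Tdo2, which starts tryptophan breakdown, read 12.59, 11.19 and 11.16 at 20 min and 12.44, 10.76 and 10.82 at 4 h. Replicate 1 was higher than the others in both groups, and the difference of -0.31 (SE 0.10) was not called. With array weights limma called 15 of the amino acid genes and 13 of the P450 and phase II genes lower against 20 min. Of all alternative fits that fit called the most genes, 692 of 19938 in either direction, beside 129 without weights.

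Bile acid and transporter genes had 13 of 39 lower against 0 min and 0 called against 20 min, where 18 had an unadjusted p under 0.05. Of 71 plasma protein genes, 21 fell against 0 min, and against 20 min 0 fell and the coagulation factor gene F11 rose by 1.01 (SE 0.17; limma, adjusted p = 0.024), from 8.94, 8.86 and 8.93 to 9.57, 10.09 and 10.10. The glycolytic regulator Pfkfb3 fell by 0.48 (SE 0.07), the only called gene among 28 of glucose and glycogen metabolism. Among 40 liver transcription factors Foxa3 rose by 0.55 (SE 0.08) and Zhx2 fell by 0.55 (SE 0.07), and Hnf4a differed by 0.20 (SE 0.09) without a call. In the lists of lipid metabolism (57 genes), apoptosis and cell cycle (61), glutathione and NRF2 targets (34) and the respiratory chain (41), limma called 0 genes, with 13, 4, 10 and 4 at an unadjusted p under 0.05. For comparison, 1978 of all 19938 genes had an unadjusted p under 0.05 at 4 h against 20 min.

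**Figure D5:**
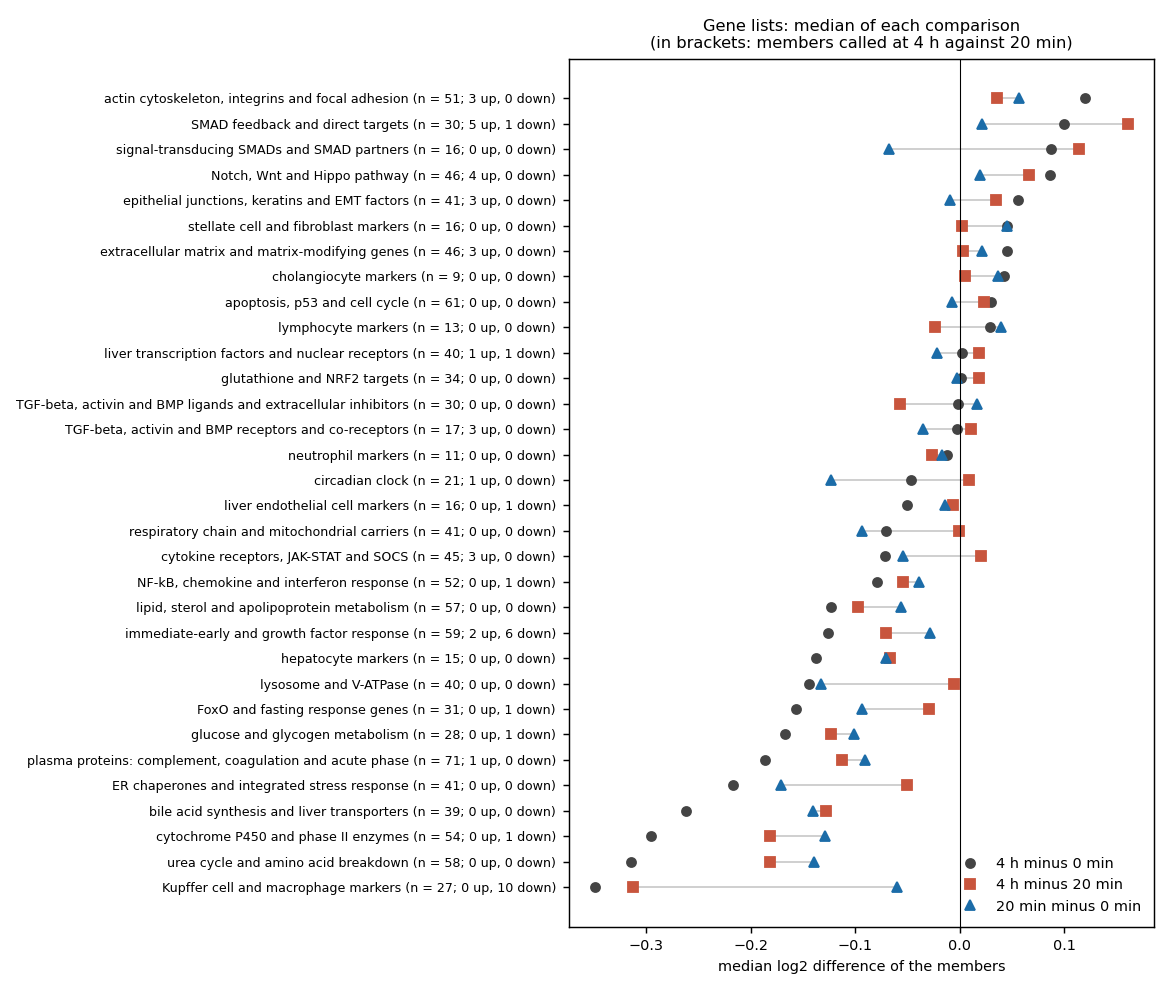
Median log2 difference (horizontal axis) of each gene list (vertical axis), with circles for 4 h minus 0 min, squares for 4 h minus 20 min, triangles for 20 min minus 0 min and a grey line joining square and triangle. The square is far from the triangle for macrophage markers (-0.31 against -0.06) and the order is turned for ER chaperones (-0.05 against -0.17).

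Some genes were called with 20 min as the reference and not with 0 min, and here too the 20 min arrays enter both intervals with opposite sign. They were 15 in all at an adjusted p under 0.05 against 20 min and at or above it against 0 min, 12 higher and 3 lower. Foxa3, a liver forkhead factor, read 9.43, 9.61 and 9.57 at 0 min, 9.29, 9.28 and 9.21 at 20 min and 9.85, 9.93 and 9.65 at 4 h, lowest at 20 min in every replicate. Marveld2, a tight junction protein gene, gave 0.42 (SE 0.07) against 20 min, 0.16 (SE 0.07) against 0 min and -0.26 (SE 0.07) at 20 min against 0 min. Creb5 turned the other way, with -0.46 (SE 0.08), -0.21 (SE 0.08) and 0.25 (SE 0.08). None of the 15 passed the 2-fold threshold. None had an adjusted p under 0.05 at 20 min against 0 min, where limma called 0.0% of all genes.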

How the data were processed

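Log2 values were used as deposited. Per the submitters' processing notes the authors computed them with RMA and Affymetrix Power Tools (versions not given in the sources used here). The methods of the study describe FARMS for its own analysis, and ComBat because quality checks found a strong batch effect on the mouse HPC arrays. The sources used here do not say which arrays formed a batch. Whether the deposited values carry that effect was not tested. RMA forces the arrays to 1 distribution, so differences are relative to the other genes on an array. Of 35556 probe sets, 21789 with exactly 1 symbol were tested, 1621 with several and 12146 with none listed were left out, and each of the 19938 genes was counted by its probe set of highest mean signal. Of 1182 list genes 1103 were matched.

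In R 4.3.3, limma 3.58.1 was fitted to all 12 arrays with time and replicate as factors (6 residual and 5.385 prior degrees of freedom), and p-values were adjusted after Benjamini-Hochberg. Arrays with the same replicate number deviated together (r from 0.653 to 0.831 over 3 pairs of 20 min and 4 h), and the number was kept as a factor. Pairs with different numbers gave -0.794 to 0.72, and the 20 min array of replicate 3 correlated better with replicate 2 at 4 h (0.72) than with its own number (0.70), so the correlations set replicate 1 apart and do not tell replicates 2 and 3 apart. The members and lists were chosen with earlier results of these data known. Named genes are up to 12 past the threshold per direction, all past it against 0 min, up to 4 called members per list and direction, up to 6 per direction called with 1 reference only, and known pathway genes. Sdf2l1, Pdia4, Ddit3, Tdo2, Itga3, Actn1, Hnf4a, Cd74, C1qb, Fcer1g, Csf1r, Myc, Zfp36l1, Marveld2, Creb5, Sox9, Cldn4 and the markers Cd14, Cd68, Clec4f, Cd5l, Timd4, Marco and Vsig4 were chosen after their values were seen. Array values give no depth, and 3 arrays per group limit the precision.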

Additional observations from a re-analysis of the deposited data

How the results depend on the processing

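In 25 alternative fits, none of the 70 named genes with an adjusted p under 0.05 changed sign. Without the replicate block 0 genes passed the threshold, 2 were at an adjusted p under 0.05 (630 unadjusted) and 0 of 2 genes remained from the comparison with 0 min. With the replicate block as a random effect the counts were 4, 38 and 4 of 8. Testing all probe sets gave 0, 10 and 0 of 0, and array weights gave 16, 692 and 14 of 26. The 6 arrays alone gave 76 genes at an adjusted p under 0.05. Other thresholds gave 15 genes (adjusted p under 0.05 and 2-fold) and 25 genes (adjusted p under 0.01, no fold). Leaving out 1 replicate gave 0 to 12 genes past the threshold, 0 to 240 at an adjusted p under 0.05 and 0 to 12 that remained, and leaving out 1 array gave 0 to 11, 16 to 164 and 0 to 10. Without replicate 3 limma called 0 genes, with 1258 at an unadjusted p under 0.05. The cause was not tested. The counts by direction, list counts and the count that remained at an adjusted p under 0.05 were recomputed under the same alternatives after seeing the data.

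Reversed signs occurred only for genes with no call and estimates smaller than their SE. With quantile normalization Smad3 was -0.0202 and Smad4 -0.0108, and with array weights Smad4 was -0.0051. Over the fits that left out 1 replicate or 1 array, Smad3 ranged from -0.0317 to 0.0479, Smad4 from -0.0222 to 0.0313 and Ccn1 from -0.0297 to 0.48.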

Other observations

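On the 2 h arrays Skil read 9.92, 9.08 and 10.49 and Pmepa1 9.12, 8.20 and 9.52, so replicate 2 was the lowest at 2 h and the highest at 4 h for both.

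Of the 9 measured cholangiocyte markers, whose median difference was 0.0051, Sox9 and Cldn4 had large differences without a call. The other members lay between -0.06 (Krt19, SE 0.06) and 0.03 (Epcam, SE 0.07). The cholangiocyte marker Sox9 read 10.41, 9.09 and 9.12 at 20 min and 10.93, 10.69 and 10.49 at 4 h, a difference of 1.16 (SE 0.34; limma, adjusted p = 0.199). The claudin gene Cldn4 read 7.07, 6.97 and 6.91 at 20 min and 8.99, 7.50 and 7.49 at 4 h, a difference of 1.01 (SE 0.25; limma, adjusted p = 0.121), with the highest value in replicate 1.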
